A study of Mus musculus with 3 samples.

Results

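Molecular chaperones, disulfide isomerases and peptidyl-prolyl isomerases were compared between B cells and IL-10-expressing plasma cells of the mouse. The genes taken were those whose symbol in the platform's probe table begins with Dnaj, Hspa, Hspb, Hspd, Hspe, Hsph, Cct, Fkbp, Pdi, Txndc or Erp in the numbered forms of these families, or is one of Ppia to Ppih. This gave 99 of the 16446 genes with a named probe. By the known location of their proteins, 31 belong to the endoplasmic reticulum (ER), 57 to the cytosol or nucleus and 8 to mitochondria, and 3 (Fkbp8, Hspbap1 and the kinase gene Pdik1l, which shares only the prefix) were placed in none of these. Membership follows from the symbol alone.

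All mice were IL-10 Venus reporter mice, whose fluorescent Venus protein reads out Il10 expression. All cells were sorted fresh by flow cytometry, with no treatment named. The 3 populations were spleen B220+ cells (B220 is a B cell isoform of CD45), spleen Venus+ CD138hi cells and bone marrow Venus+ CD138hi cells (CD138, or syndecan-1, marks plasma cells), with 1 single-colour array each. The sources used here do not give age, sex, number of mice or pooling, and both Venus+ populations are by their gate limited to cells that express the reporter.

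With 1 array for each population there is no replicate check, no test was made, and array and population cannot be told apart. Values are normalized signals, the authors' blank-subtracted intensities scaled so that the median detected probe of an array is 25. A signal is compared with the same probe on another array only, and signals of a gene are given in the order B220+, spleen Venus+, bone marrow Venus+. The error after a log2 ratio is a spot error (1 SD, from blank and control spots of the 2 arrays), which leaves out the spread between mice and sorts. A gene detected on both arrays was called higher or lower from a 2-fold difference. In sorted bulk RNA, fewer cells of a type and less RNA per cell cannot be told apart.

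The arrays largely carried the markers of their labels. Summed over 6 named plasma cell genes the signals were 2376.1, 25119 and 26987.1, and over 6 named B cell genes 26942.3, 9896.7 and 4047.7. Tnfrsf17 was not detected in B220+ cells, and Cr2 was not detected in either Venus+ population. All 6 named granulocyte genes were detected in B220+ cells, with a summed signal of 4919.5 against 14.5 in spleen and 199.3 in bone marrow Venus+ cells. The 7 T cell genes summed to 40.6, 764.4 and 1120, most of it from Cd247, while Cd3e was not detected in B220+ cells and stood at 7.6 and 17.8 in the Venus+ populations. The 4 named monocyte and macrophage genes summed to 58.3, 136.1 and 268.1, a rise that came from Cd68 (33, 111.2 and 240.8). Csf1r was nearly level (23.9, 24.9 and 27.3), Adgre1 was detected in B220+ cells alone (1.4) and Cd14 on no array. The 2 named erythroid genes summed to 75.1, 15.6 and 21.9. The part of such cells in the differences given here was not tested.

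Plasma cells secrete antibody in bulk, and each heavy and light chain is folded in the ER. There the Hsp70 chaperone BiP, encoded by Hspa5, binds unfolded chains with the help of J-domain proteins, protein disulfide isomerases form and shuffle disulfide bonds, and prolyl isomerases (FKBPs and cyclophilins) turn proline bonds. The unfolded protein response raises many of these genes through the factors ATF6 and XBP1. Cytosolic folding relies on other Hsp70 members, on the ring-shaped CCT chaperonin, which folds actin and tubulin, and on Hsp90, and mitochondria have their own Hsp60 and Hsp70.

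The promoters of members that stood higher together are shown first, because the letters of elements known from the unfolded protein response occur in some of them. The sequences are RefSeq windows of GRCm38.p6, of which the 250 bases before each gene's start are printed 5′ to 3′ on the gene's strand. Capitals mark the fixed letters of the ER stress response element (ERSE, CCAAT and CCACG with 9 bases of any kind between them) in Hspa5, Dnajc3 and Pdia6, of the XBP1-type element (UPRE, TGACGTGG) in Txndc5 and Txndc11, and of the heat shock element (HSE, GAA, TTC and GAA with 2 bases of any kind between neighbours) in Hspd1, the mitochondrial Hsp60. Hspd1 serves as the contrast. It stood lower in the values used here, though another background correction, given below, reversed its direction. The windows of Dnajb11, Fkbp1b and Dnajb6, which also hold the letters of such elements, are not printed.
Hspa5, chr2:34771840-34772089, + strand: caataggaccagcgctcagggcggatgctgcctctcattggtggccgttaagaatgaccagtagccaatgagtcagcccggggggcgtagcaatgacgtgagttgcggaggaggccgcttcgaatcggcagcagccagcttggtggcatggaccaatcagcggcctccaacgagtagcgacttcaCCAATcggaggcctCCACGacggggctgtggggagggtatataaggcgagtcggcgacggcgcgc
Dnajc3, chr14:118937682-118937931, + strand: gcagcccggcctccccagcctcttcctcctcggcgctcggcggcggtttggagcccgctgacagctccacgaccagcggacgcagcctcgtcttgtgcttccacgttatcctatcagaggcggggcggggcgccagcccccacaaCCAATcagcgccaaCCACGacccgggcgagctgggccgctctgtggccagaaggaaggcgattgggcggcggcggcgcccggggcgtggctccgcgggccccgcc
Pdia6, chr12:17266339-17266588, + strand: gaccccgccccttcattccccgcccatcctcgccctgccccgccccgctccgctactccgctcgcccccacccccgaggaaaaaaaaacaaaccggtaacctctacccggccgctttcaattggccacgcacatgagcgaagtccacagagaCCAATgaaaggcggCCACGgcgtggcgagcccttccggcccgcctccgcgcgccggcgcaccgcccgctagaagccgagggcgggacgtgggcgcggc
Txndc5, chr13:38527915-38528164, - strand: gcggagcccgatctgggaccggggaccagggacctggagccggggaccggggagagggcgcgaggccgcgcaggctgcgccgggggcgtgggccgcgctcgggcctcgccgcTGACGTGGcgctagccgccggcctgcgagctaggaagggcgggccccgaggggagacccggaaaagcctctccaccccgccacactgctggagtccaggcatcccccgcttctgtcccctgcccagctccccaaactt
Txndc11, chr16:11134533-11134782, - strand: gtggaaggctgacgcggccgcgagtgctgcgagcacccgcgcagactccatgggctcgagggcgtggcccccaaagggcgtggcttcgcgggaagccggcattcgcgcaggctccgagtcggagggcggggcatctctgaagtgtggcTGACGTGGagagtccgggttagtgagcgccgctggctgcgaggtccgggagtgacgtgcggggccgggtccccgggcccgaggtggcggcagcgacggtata
Hspd1, chr1:55087933-55088182, - strand: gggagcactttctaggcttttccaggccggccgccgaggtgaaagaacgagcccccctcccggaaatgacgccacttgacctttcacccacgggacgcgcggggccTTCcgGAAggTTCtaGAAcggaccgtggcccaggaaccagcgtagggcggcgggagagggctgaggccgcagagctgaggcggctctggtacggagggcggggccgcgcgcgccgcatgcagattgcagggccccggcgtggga

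Each motif was searched on both strands of the full 300-base windows, and the motifs share letters (the CCACG of ERSE), so a match is a description of these letters and not a binding site. Of the 99 members, 84 had a window. An ERSE was found in 3 of 27 ER members (11.1%), in 0 of 48 cytosolic or nuclear and 0 of 6 mitochondrial members, and in 37 of all 27025 genes of the table (0.137%). It begins 65 bases before the start of Hspa5, 105 before that of Dnajc3 and 98 before that of Pdia6. The related ERSE-II (ATTGG and CCACG with 1 base between them) was found in 1 ER member, Dnajb11, just past its start, and in 12 genes in all (0.0444%). A UPRE was found in Txndc5, Txndc11 and the cytosolic Fkbp1b, and in 0.714% of all genes. An HSE was found in Hspd1, where 2 overlapping matches lie on opposite strands, and in Dnajb6, and in 0.662% of all genes. The 5-base core CCACG alone stood in 21 of 27 ER members (77.8%), 24 of 48 cytosolic or nuclear members (50%) and 35.5% of all genes. Among ER members at least 2-fold higher in spleen Venus+ than in B220+ cells it stood in 13 of 14, among those under 2-fold in 7 of 11, and in the promoter of the 1 lower member, Tmx1, it was not found. All 6 ER members with an ERSE, ERSE-II or UPRE were among those at least 2-fold higher in the spleen comparison. Of all 29 ER members measured there, 15 (51.7%) were higher. The cytosolic Fkbp1b, which also holds a UPRE, was detected on no array. A part of these elements in the differences was not tested. The base composition of the windows was not compared.

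In the spleen, genes of ER folding stood higher in Venus+ CD138hi than in B220+ cells, while the share of cytosolic and nuclear folding genes that were lower was nearer to that of all genes. Of 29 ER members detected on both arrays, 15 (51.7%) were at least 2-fold higher and 1 was lower, with a median log2 ratio of 1.10. The background was 15.8% higher and 16.5% lower over the 11647 genes detected in both, with a median of -0.02. Of 45 cytosolic or nuclear members, 3 (6.67%) were higher and 10 (22.2%) lower, and the median was -0.43. Of 8 mitochondrial members, 2 were higher and 1 lower, and the median was 0.015. Over all 85 members measured, 20 were higher, 12 lower and 53 between, with a median of -0.19, so the members together stood closer to the background than the ER members did. With a normexp background correction on the local signal around each spot, the ER median was 0.20 and the cytosolic and nuclear median -0.068, and 12 ER members were higher and 4 cytosolic or nuclear members lower where 3.03% and 3.57% of all genes were called; this took Fkbp9, Dnajb9, Ppib, Tmx1, Fkbp3, Hspa14, Dnaja1, Dnajb4, Dnajc12, Dnajc9, Cct8, Hspb6, Hspb8, Dnajc15 and Dnajc4 under 2-fold. With the blank spots as background the ER median was 0.65, 14 ER members were higher and 7 cytosolic or nuclear members lower, where 4.48% and 4.29% of all genes were called, and Fkbp9, Tmx1, Fkbp3, Dnajb4, Dnajc12, Cct8, Hspb8, Dnajc15 and Hspd1 were under 2-fold.

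In bone marrow Venus+ against spleen B220+ cells, where organ and cell type differ together, 14 of 29 ER members (48.3%) were at least 2-fold higher and 5 lower, against a background of 22.6% higher and 30.7% lower among 10835 genes. Of 43 cytosolic or nuclear members, 4 were higher and 21 (48.8%) lower, and of 8 mitochondrial members 1 was higher and 3 lower. Relative to the median of all genes, which was -0.24, the ER median lay 1.06 higher, the cytosolic and nuclear median at -0.64 and the mitochondrial median at 0.04. Scaling the arrays to the probes detected on all 3 moved the median of all genes to 0.05. It gave 15 higher and 2 lower ER members and 4 higher and 13 lower cytosolic or nuclear members, and took the higher share of all called genes from 42.3% to 54.0%. Under it Dnajc10, Dnajc16, Txndc12, Dnaja2, Dnajb1, Dnajc13, Txndc9, Cct3, Ppia, Ppig, Ppih and Hspa9 were no longer 2-fold lower. With the local normexp correction 11 ER members were higher and 0 lower, and 2 cytosolic or nuclear members were higher and 5 lower, where 4.78% and 5.42% of all genes were called. It took the higher members Fkbp9, Dnajb11, Txndc11, Dnajb3, Hspb8 and Dnajc4 under 2-fold. It did the same to the lower members Fkbp7, Dnajc10, Dnajc16, Tmx1, Txndc12, Fkbp3, Hspa14, Hspa4, Dnaja1, Dnaja2, Dnajb1, Dnajb4, Dnajc13, Dnajc5, Dnajc9, Txndc9, Cct2, Cct4, Cct8, Ppig, Ppih, Hspa9, Dnajc11, Hspbap1 and Pdik1l. This comparison shares its B220+ array with the spleen comparison.

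**Figure D1:**
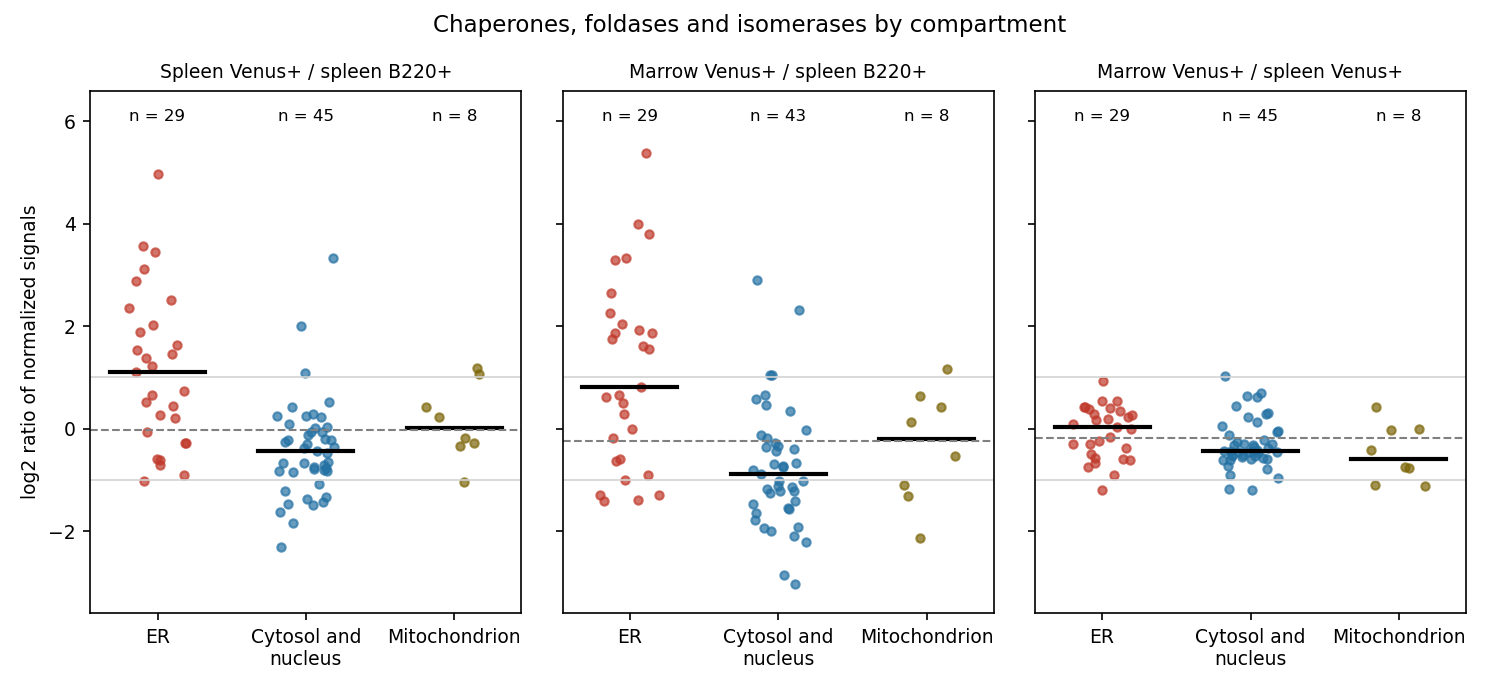
Log2 ratio of normalized signals (vertical axis) of each member detected on both arrays, by compartment, in the 3 comparisons. Points are genes, black bars medians, the dashed line the median of all genes and the grey lines 2-fold; the ER median stands at 1.10 and the cytosolic and nuclear median at -0.43 in the spleen comparison.

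**Figure D2:**
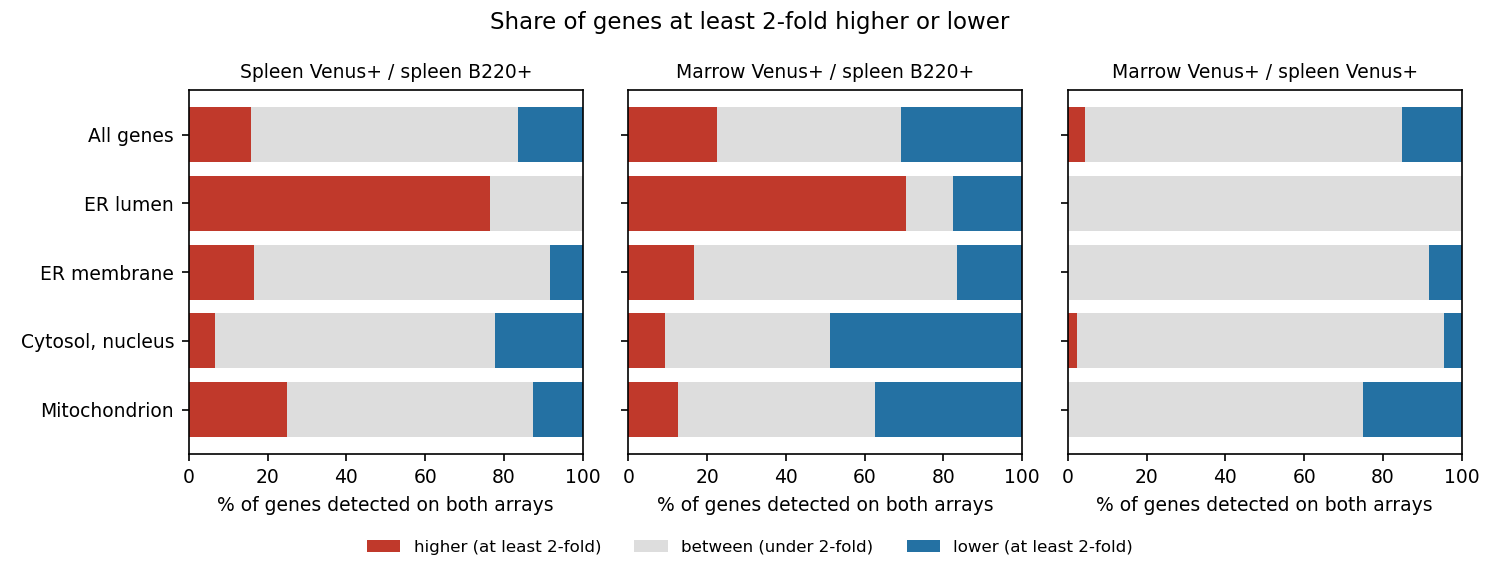
Share of genes detected on both arrays (horizontal axis, percent) that were at least 2-fold higher, at least 2-fold lower or between, for all genes and for the members by location. In spleen Venus+ against B220+ cells the higher share is 76.5% for ER lumen, 16.7% for ER membrane and 15.8% for all genes.

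Within the ER the members differed by where in the organelle they sit, a split made after the values were seen. Of 17 measured proteins of the lumen, 13 were higher in spleen Venus+ than in B220+ cells and 0 lower, with a median log2 ratio of 1.53. Of 12 membrane-anchored members, 2 were higher and 1 lower, at a median of 0.24, beside 15.8% higher and 16.5% lower of all genes. In the bone marrow comparison 12 of 17 lumenal members were higher and 3 lower, and 2 of 12 membrane members were higher and 2 lower. There 22.6% of all genes were higher and 30.7% lower. The 2 membrane members at least 2-fold higher were Fkbp11 and Txndc11 in both comparisons, though Txndc11 was under 2-fold in the bone marrow comparison with local normexp. These counts hold only for genes that the naming rule takes. ER genes under an older name were left out. Among them Erp27 (-3.07), Txndc16 (-1.26) and the dim Pdilt (-1.90) were at least 2-fold lower in the spleen. Hspa13 (2.38) was higher and Txndc15 (0.33) under 2-fold.

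Hspa5 encodes BiP, the Hsp70 chaperone of the ER lumen. Its normalized signals were 1795.0, 7265.8 and 8550.9. Both Venus+ arrays were higher, 4.05-fold in the spleen (log2 ratio 2.02 ± 0.14) and 4.76-fold in the bone marrow (2.25 ± 0.13), and they differed from each other by 0.24 ± 0.11. Of 4 lumenal J-domain proteins that work with BiP, 3 were higher in both Venus+ populations. Dnajc3, which encodes the co-chaperone P58IPK, had signals of 75.6, 822.2 and 1198.9, which was 10.9-fold higher in spleen and 15.9-fold higher in bone marrow Venus+ cells (3.44 ± 0.14 and 3.99 ± 0.13). Dnajb9 (ERdj4), a co-chaperone of ER-associated degradation and a repressor of the stress sensor IRE1, had signals of 41.9, 214.9 and 262.4, with log2 ratios of 2.36 ± 0.14 and 2.65 ± 0.13. Dnajb11 (ERdj3), which binds unfolded chains before they pass to BiP, had signals of 339.1, 1050.9 and 1405.7, with log2 ratios of 1.63 ± 0.14 and 2.05 ± 0.13.

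Dnajc10 went the other way. It encodes ERdj5, a disulfide reductase that prepares misfolded proteins for degradation, and its signals were 81.1, 53.0 and 33.2, highest on the B220+ array. The log2 ratio was -0.61 ± 0.14 in the spleen, under 2-fold, and -1.29 ± 0.14 in the bone marrow comparison. The scaling to probes detected on all 3 arrays took the latter under 2-fold.

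Among the protein disulfide isomerases and thioredoxin-domain proteins of the ER, 7 of 12 measured were higher by 2-fold or more in the spleen comparison and 1 was lower. Of all genes, 15.8% were higher there and 16.5% lower. Pdia4 (ERp72) had signals of 151.1, 1777.5 and 1510.5, 11.8-fold higher in spleen and 10-fold higher in bone marrow Venus+ cells (3.56 ± 0.14 and 3.32 ± 0.13). Txndc5 (ERp46), an oxidase of the lumen, had signals of 590.3, 5088.7 and 5799.9, with log2 ratios of 3.11 ± 0.14 and 3.30 ± 0.13. For Txndc11, a membrane protein with thioredoxin domains, the signals were 142.1, 806.7 and 478.8, so that the spleen Venus+ array was the highest of the 3, and its log2 ratios to B220+ were 2.51 ± 0.14 and 1.75 ± 0.13.

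Pdia3 (ERp57), the partner of calnexin and calreticulin, and Pdia6 (P5) were also higher. Pdia3 stood at 269.4, 1002.4 and 1030.7, with log2 ratios of 1.90 ± 0.14 and 1.94 ± 0.13. Pdia6 stood at 876.8, 2392.7 and 3193.6, with log2 ratios of 1.45 ± 0.14 and 1.86 ± 0.13. Erp44, named Txndc4 in the probe table, retrieves immature proteins such as unassembled IgM subunits from the Golgi. Its signals were 177.8, 413.8 and 540.9, with log2 ratios of 1.22 ± 0.14 and 1.61 ± 0.13. Erp29, a lumenal relative without redox activity, was highest in spleen Venus+ cells (signals of 451.9, 970.0 and 637.9), 2.15-fold higher than B220+ in the spleen (1.10 ± 0.14) and under 2-fold in the bone marrow comparison (0.50 ± 0.13). Pdia5 had a detected signal only on the bone marrow array, 5.1. Its bounds, which leave out the spot error, were 3.92-fold above B220+ and 3.00-fold above spleen Venus+ cells.

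The transmembrane thioredoxins Tmx1, Tmx2, Tmx3 and Tmx4 stood at or below the B220+ level. In the spleen, 0 of these 4 had a log2 ratio above 0. Tmx1 (Txndc1 in the probe table), which acts on membrane-bound clients, had signals of 267.9, 132.6 and 102.1, with log2 ratios of -1.01 ± 0.14 in the spleen and -1.39 ± 0.13 in the bone marrow comparison. Tmx2 (106.5, 70.6 and 57.3) and Tmx3 (48.0, 39.3 and 32) had log2 ratios of -0.59 ± 0.14 and -0.29 ± 0.14 in the spleen and -0.89 ± 0.14 and -0.58 ± 0.14 in the bone marrow comparison. Tmx4 was dim, at 4.1, 3.4 and 4.1 (-0.27 ± 0.46 in the spleen). Txndc12 (ERp18), a small thioredoxin-like protein of the lumen, had signals of 124.8, 76.8 and 51.0, with a log2 ratio of -0.70 ± 0.14 in the spleen, under 2-fold, and of -1.29 ± 0.14 in the bone marrow comparison, a call lost under the scaling to shared probes.

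The prolyl isomerases of the ER held the largest ratio of all members. Fkbp11, a membrane-anchored FKBP of secretory cells, had signals of 13.6, 429.0 and 566.7, 31.5-fold and 41.7-fold higher (log2 ratios 4.98 ± 0.15 and 5.38 ± 0.15). Fkbp2, a small lumenal FKBP, had signals of 223.6, 1649.5 and 3130.8, with log2 ratios of 2.88 ± 0.14 and 3.81 ± 0.13. Of the ER members it had the largest ratio of bone marrow to spleen Venus+ cells, 0.92 ± 0.11. Ppib, the ER cyclophilin B, had signals of 529.2, 1524.2 and 1935.5 on its brighter probe, with log2 ratios of 1.53 ± 0.14 and 1.87 ± 0.13. A second, dim Ppib probe gave 11.3, 12.1 and 23.8, a log2 ratio of 0.10 in the spleen and 1.07 in the bone marrow comparison, so the probes disagreed in the spleen, and with their mean Ppib was not called there. Fkbp7 (14, 7.5 and 5.3), Fkbp9 (1.5, 3.9 and 4.4) and Fkbp14 (4.4, 7.3 and 3.9) were dim, and the ratio of Fkbp9 in the spleen had a spot error of 0.73. Ppic was detected on no array.

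**Figure D3:**
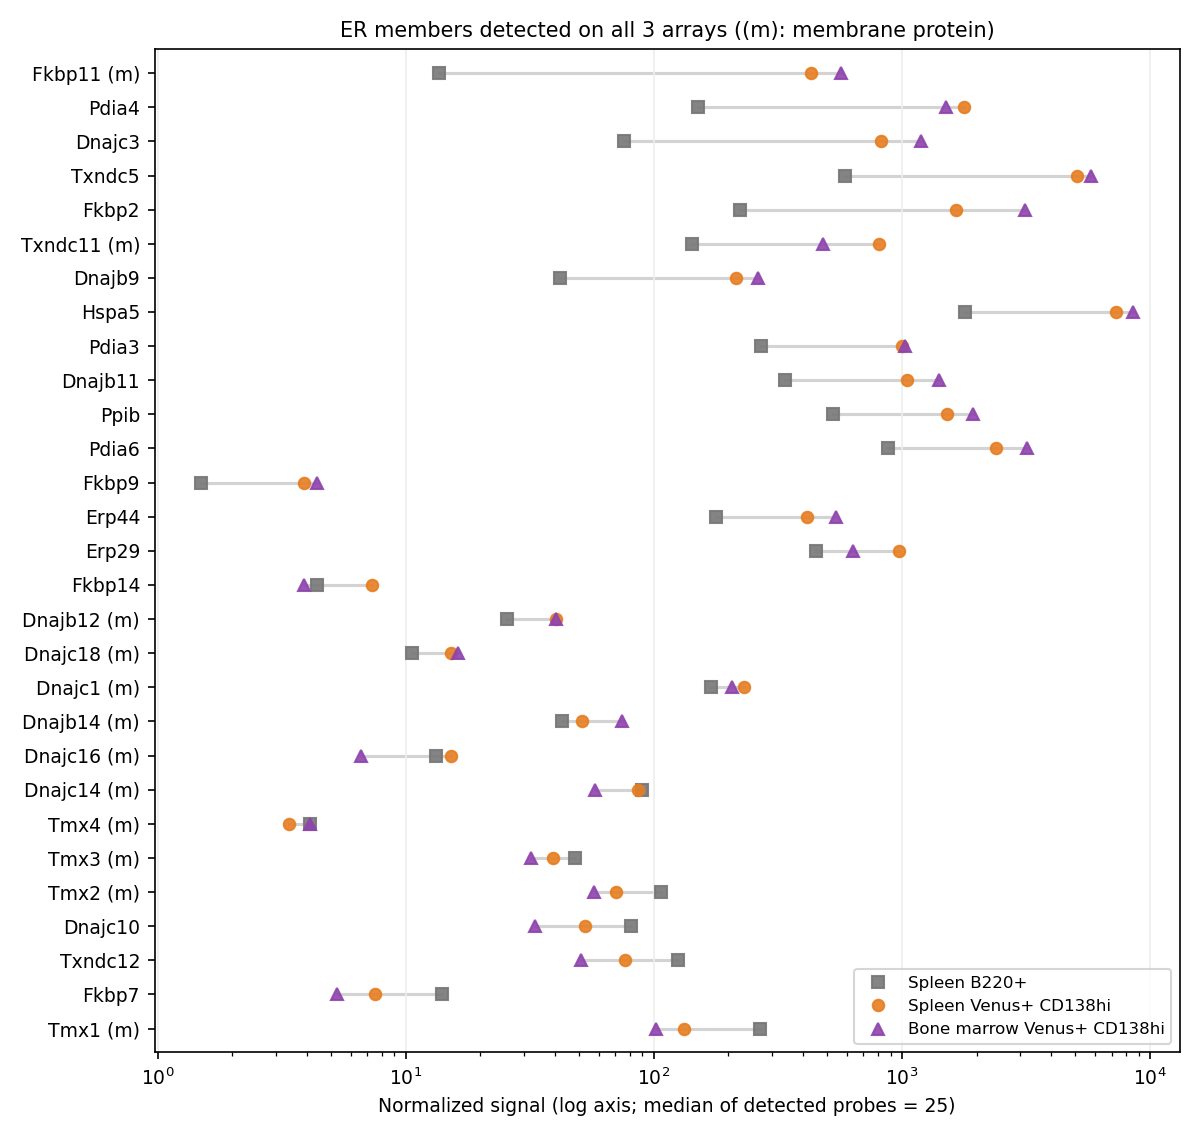
Normalized signal (horizontal log axis) on the 3 arrays of the 29 ER members detected on all of them, ordered by the ratio of spleen Venus+ to B220+ cells; (m) marks membrane proteins, and levels of different genes are not comparable. For Hspa5 the B220+ array reads 1795.0 and the Venus+ arrays read 7265.8 and 8550.9, while for Tmx1 the B220+ array is the highest.

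J-domain proteins, which carry clients to Hsp70 and start its ATPase cycle, occur in every compartment and so allow the compartments to be set side by side within a family. In the spleen comparison 3 of 10 ER members were higher and 0 lower, 2 of 5 mitochondrial members were higher and 0 lower, and 0 of 17 cytosolic or nuclear members were higher and 6 (35.3%) lower. The medians were 0.49, 0.42 and -0.75. Of all genes, 15.8% were higher there and 16.5% lower. In the bone marrow comparison, where 30.7% of all genes were lower and 22.6% higher, 9 of 16 cytosolic or nuclear J proteins were lower and 1, Dnajb3, was higher. With local normexp Dnajc2 and Dnajc8 were the only of these still 2-fold lower, and Dnajb3 was under 2-fold with both normexp corrections. The membrane J proteins of the ER lay close to the B220+ level in the spleen. Dnajc1, Dnajb12, Dnajb14, Dnajc14, Dnajc16 and Dnajc18 had log2 ratios from -0.06 (Dnajc14) to 0.66 (Dnajb12). Dnajc1, which anchors BiP near the ribosome, had signals of 169.4, 231.7 and 206.6. Dnajb12 (25.7, 40.5 and 40.4) and Dnajb14 (42.5, 51.3 and 74.7) are related proteins of ER-associated degradation. Dnajc14 stood at 89.7, 86.3 and 57.8, Dnajc18 at 10.6, 15.3 and 16.2, and Dnajc16 at 13.2, 15.2 and 6.6, the last lying on the 2-fold limit in bone marrow against B220+ (a ratio with a spot error of 0.30).

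Dnajc9, a nuclear J protein that handles histones, had the lowest ratio of the members in the spleen. Its signals were 1038.7, 208.7 and 144.1, 4.98-fold and 7.21-fold lower (log2 ratios -2.32 ± 0.14 and -2.85 ± 0.13), and under 2-fold in both comparisons with local normexp. Dnaja1, a major cytosolic partner of Hsc70, had signals of 432.2, 140.8 and 114.2, with log2 ratios of -1.62 ± 0.14 and -1.92 ± 0.13, and local normexp ended both calls too. Dnajc8 (717.8, 258.0 and 168.4), a splicing-associated protein, and Dnajc2 (540.2, 200.7 and 116.0), a ribosome-associated co-chaperone also known as ZRF1 or MPP11, had log2 ratios of -1.48 ± 0.14 and -1.43 ± 0.14 in the spleen and -2.09 ± 0.13 and -2.22 ± 0.13 in the bone marrow comparison. Dnajb4 had a log2 ratio of -1.33 ± 0.14 in the spleen, which local normexp turned to 0.042, and Dnajb1, the heat-inducible Hsp40, one of -0.83 ± 0.14. Dnajb3 (6.7, 9.0 and 13.9) and Dnajb8 (12.4, 14.5 and 19.6) were dim, with log2 ratios of 1.05 ± 0.23 and 0.66 ± 0.18 in the bone marrow comparison. A further probe of Dnajb8, listed under an older name, was detected on no array. Dnajc12 had signals of 23.5, 10.1 and 20.7, and it was the 1 member at least 2-fold higher in bone marrow than in spleen Venus+ cells (1.04 ± 0.19).

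**Figure D4:**
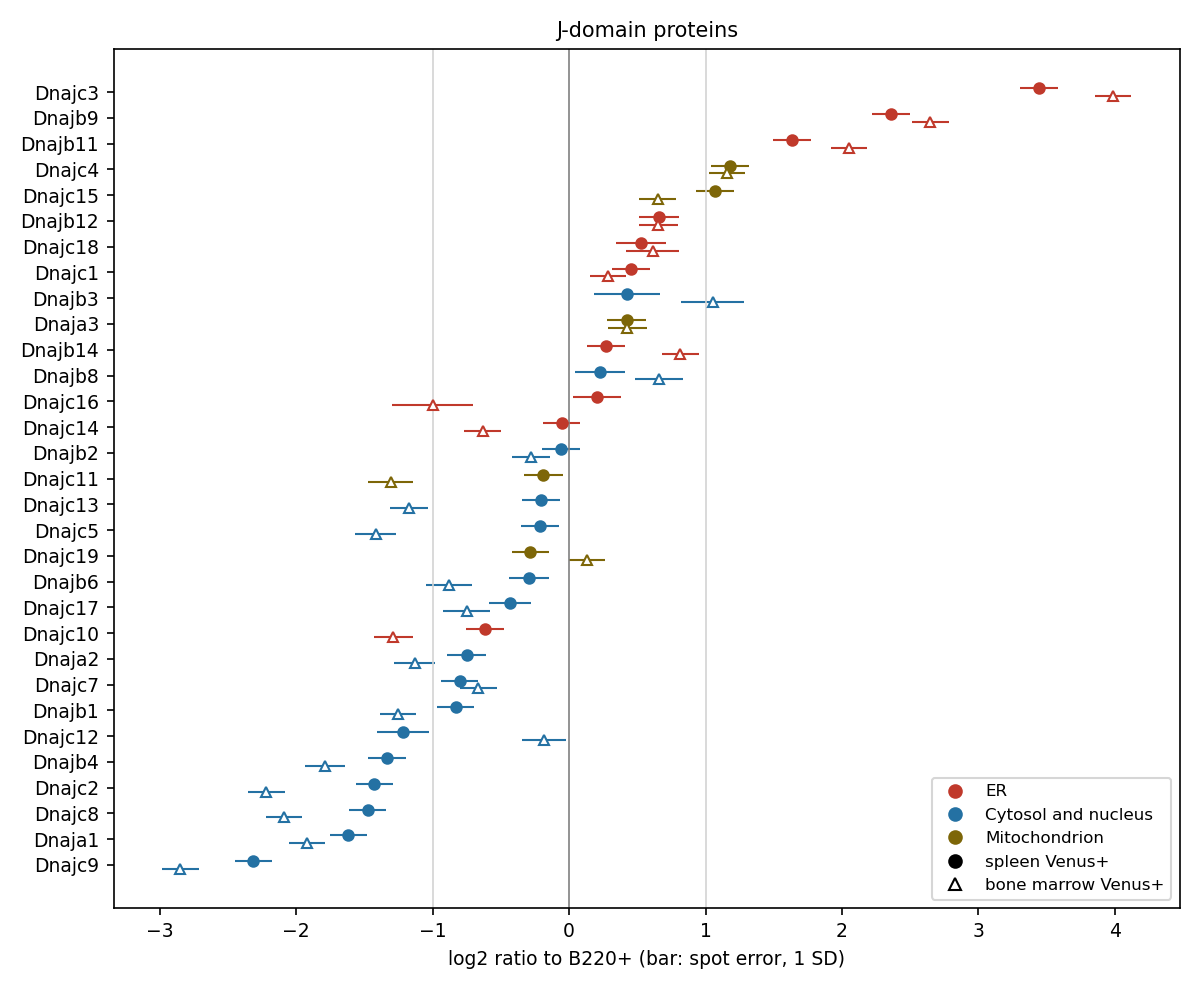
Log2 ratio to B220+ cells (horizontal axis) of J-domain members detected on all 3 arrays, filled circles for spleen and open triangles for bone marrow Venus+ cells, coloured by compartment; bars are spot errors (1 SD). Dnajc3, Dnajb9 and Dnajb11 of the ER lumen have the 3 highest ratios in each comparison and the nuclear Dnajc9 the lowest.

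The CCT chaperonin is a ring of several related subunits. Of 7 such genes on the array, 6 were detected, and Cct6b, a testis form, was not detected on any array. In the spleen 1 of the 6, Cct8, was at least 2-fold lower (801.5 in B220+ and 377.7 in spleen Venus+ cells, -1.09 ± 0.14), and the median log2 ratio was -0.66. Of all genes, 16.5% were lower there. Cct4 stood at 1857.8, 1030.4 and 675.2, Cct2 at 954.6, 605.3 and 324.3, and Cct3 at 1084.8, 684.2 and 499.7. Cct5 (675.0, 805.4 and 536.4) and Cct7 (305.4, 309.1 and 282.0) did not share this order, with log2 ratios of 0.25 ± 0.14 and 0.02 ± 0.14 in the spleen. In the bone marrow comparison 4 of the 6, Cct2, Cct3, Cct4 and Cct8, were lower, beside 30.7% of all genes, with log2 ratios from -1.65 to -1.12. Cct5 and Cct7 stayed under 2-fold, at -0.33 ± 0.13 and -0.12 ± 0.13. Local normexp turned the ratio of Cct4 to 0.40 and took Cct2 and Cct8 under 2-fold there.

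Hspa8 encodes Hsc70, the constitutive cytosolic Hsp70. It had signals of 5895.2, 4544.2 and 3546.9 and stayed under 2-fold in both comparisons (-0.38 ± 0.14 and -0.73 ± 0.13), and its second probe gave -0.52 and -0.77. Hspa4 (Apg-2), an exchange factor of the Hsp110 class, stood at 652.9, 369.3 and 222.0, and Hspa14, a ribosome-associated Hsp70, at 421.4, 150.7 and 105.0. Their log2 ratios were -0.82 ± 0.14 and -1.48 ± 0.14 in the spleen, and in the bone marrow comparison they were 2.94-fold and 4.01-fold lower, and under 2-fold with local normexp. Of the 6 measured cytosolic Hsp70 members, 0 were higher in either comparison, beside 15.8% of all genes in the spleen and 22.6% in the bone marrow comparison.

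Among cytosolic and nuclear prolyl isomerases, 1 of 4 FKBPs and 1 of 5 cyclophilins were lower in the spleen and 0 higher, and 1 of 4 and 4 of 5 were lower in the bone marrow comparison. Of all genes, 16.5% were lower in the spleen and 30.7% in the bone marrow comparison. Ppie (98.6, 104.6 and 77.3) and Fkbp5 (6.2, 7.6 and 7.9) had log2 ratios of 0.085 ± 0.14 and 0.29 ± 0.27 in the spleen. Ppid (cyclophilin 40), a co-chaperone of Hsp90, had signals of 216.9, 60.3 and 26.7, and its log2 ratios of -1.85 ± 0.14 and -3.02 ± 0.15 were the lowest of the cyclophilins. It was also lower in bone marrow than in spleen Venus+ cells (-1.18 ± 0.13). Ppia, cyclophilin A, the target of cyclosporin, had signals of 16622.4, 9794.6 and 8185.9 (-0.76 ± 0.14 and -1.02 ± 0.13). Fkbp3, a nuclear FKBP, had signals of 488.7, 189.1 and 128.4 (-1.37 ± 0.14 and -1.93 ± 0.13). Fkbp4 (FKBP52), which works with Hsp90 in steroid receptor complexes, stood at 415.2, 261.1 and 317.0, and Fkbp1a (FKBP12), the target of tacrolimus, at 185.7, 145.9 and 105.7, both under 2-fold.

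Small heat shock proteins bind unfolding chains without ATP. Of 5 measured, 3 were at least 2-fold higher and 0 lower in each Venus+ population than in B220+ cells, with medians of 1.08 and 1.04. Of all genes, 15.8% were higher in the spleen and 22.6% in the bone marrow comparison. With local normexp Hspb6 was under 2-fold in the spleen, and Hspb8 was under 2-fold in both comparisons with both normexp corrections. Hspb1 (Hsp27) had signals of 21.0, 212.1 and 157.4, 10.1-fold and 7.50-fold higher (3.34 ± 0.14 and 2.91 ± 0.14). Hspb8, which acts with Bag3 in the removal of aggregates, had signals of 5.7, 22.9 and 28.2 (2.01 ± 0.23 and 2.31 ± 0.22), and Hspb6 of 90, 190.9 and 184.9 (1.08 ± 0.14 and 1.04 ± 0.13). Hspb7 stood at 301.9, 435.2 and 413.5 and Hspb2 at 6.2, 5.2 and 6.1, both under 2-fold. Among cytosolic or nuclear members detected on both arrays, Hspb1, Hspb6 and Hspb8 were the only ones at least 2-fold higher in the spleen.

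**Figure D5:**
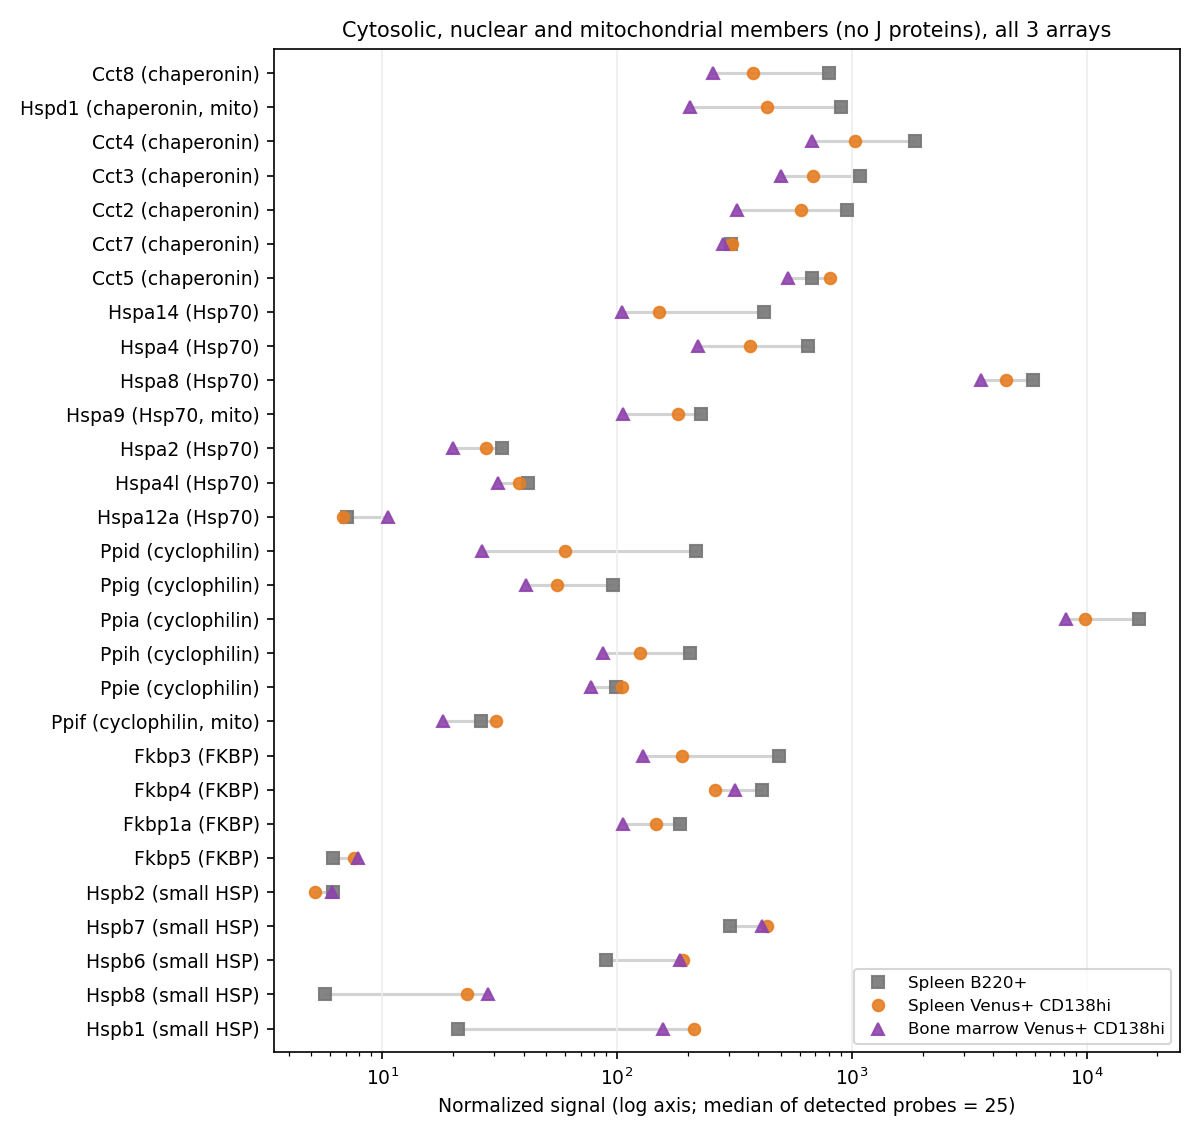
Normalized signal (horizontal log axis) on the 3 arrays of cytosolic, nuclear and mitochondrial members other than J proteins, grouped by family; levels of different genes are not comparable. For Cct2, Cct3, Cct4, Cct8 and Hspd1 the bone marrow Venus+ array lies more than 2-fold left of the B220+ array, for Cct2 with 324.3 against 954.6, while Hspb1 lies to the right of it on both Venus+ arrays.

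The mitochondrial members were divided. Hspd1, the Hsp60 of the matrix, had signals of 900.1, 436.7 and 204.7 (-1.04 ± 0.14 and -2.14 ± 0.13), and it was 2.13-fold lower in bone marrow than in spleen Venus+ cells. Its direction rests on the background used, since local normexp gave log2 ratios of 2.05 and 1.69 to B220+ cells. Normexp with the blank spots as background kept its direction in both comparisons. With it Hspd1 was under 2-fold in the spleen and still called lower in the bone marrow comparison. Hspa9 (mortalin), the Hsp70 of the matrix and import motor, stood at 228.6, 181.5 and 106.3 (-0.33 ± 0.14 and -1.10 ± 0.13). Dnajc4 (91.3, 206.6 and 203.4) and Dnajc15 were higher in the spleen, at 1.18 ± 0.14 and 1.07 ± 0.14. Dnajc15, an inner membrane protein, had signals of 75.9, 159.4 and 118.9, and Dnajc19, its relative at the import channel, 496.9, 408.2 and 544.2. Ppif, cyclophilin D of the permeability transition, stood at 26.3, 30.6 and 18.2. Dnajc11 had signals of 44.1, 38.7 and 17.8, and Dnaja3 (Tid1) of 29.7, 39.8 and 39.9.

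Between the Venus+ populations few members differed by 2-fold. Of 85 measured in both, 1 (Dnajc12) was at least 2-fold higher in bone marrow and 5 (Ppid, Dnajc5, Dnajc16, Dnajc11 and Hspd1) were lower, against a background of 4.33% higher and 15.2% lower over 11374 genes. The median was 0.04 for the ER, -0.43 for the cytosol and nucleus and -0.59 for mitochondria, beside -0.17 for all genes. Scaled to the probes detected on all 3 arrays, the median of all genes was 0.16, 3 members were higher (Dnajc12, Fkbp2 and Txndc2) and 0 lower, and the higher share of all called genes went from 22.2% to 57.9%. The ER median and the cytosolic and nuclear median were 0.47 apart, a difference that scaling cannot move. Dnajc3 (0.54 ± 0.11), Dnajb14 (0.54 ± 0.12) and Fkbp2 stood highest among ER members and Dnajc16 (-1.20 ± 0.29), Fkbp14 (-0.90 ± 0.48) and Txndc11 (-0.75 ± 0.11) lowest. Outside the ER the highest ratios after Dnajc12 were those of Txndc2 (0.69 ± 0.32), Hspa12a (0.64 ± 0.27), Dnajb3 (0.63 ± 0.22), Dnajb8 (0.43 ± 0.17) and Dnajc19 (0.41 ± 0.11), and Dnajc5, the vesicle protein CSPα (61.5, 53.0 and 23.0), and Dnajc13, an endosomal protein (93.4, 81.0 and 41.4), were among the lowest at -1.20 ± 0.14 and -0.97 ± 0.12. No member called between the Venus+ populations stayed called under either normexp correction.

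Members detected on some arrays only were dim. Dnajb13 (9.8 and 8.0) and Txndc2 (5.4 and 8.7), both known from testis, were detected in the Venus+ populations and not in B220+ cells, at least 7.54-fold and 4.15-fold higher in the spleen and at least 6.15-fold and 6.69-fold in bone marrow. Dnaja4 was detected in spleen Venus+ cells alone at 2.8, with a bound of 2.15-fold above B220+ cells. All these bounds leave out the spot error. The bounds of Dnajb5, Dnajc6, Nme8 (Txndc3 in the probe table) and Hspb9 stayed under 2-fold. The 8 members detected on no array were Ppic, Fkbp1b, Hspa1l, Hspb3, Cct6b, Dnajc5b, Dnajc5g and Txndc8. In all, 83 of the 99 members were detected on all 3 arrays, against 65.6% of all genes.

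Partners of these genes that the naming rule leaves out were taken from lists by compartment. Of 21 ER partners measured in both spleen populations, 15 were higher by 2-fold or more and 0 lower, beside 15.8% and 16.5% of all genes, with a median log2 ratio of 1.69. The highest were Creld2 (4.01 ± 0.14), Sdf2l1, a BiP cofactor (3.78 ± 0.14), and Prdx4, an ER peroxiredoxin that drives disulfide formation (3.48 ± 0.14), and the lowest Mesd (-0.37 ± 0.14), the oxidase gene Ero1a (-0.18 ± 0.15) and the folding sensor gene Uggt1 (0.16 ± 0.14). The related genes Ero1b (1.69 ± 0.14) and Uggt2 (1.90 ± 0.16) were at least 2-fold higher. Of 31 cytosolic and nuclear partners, 1 was higher and 5 lower, with a median of -0.27. Bag3 (1.26 ± 0.29), the Hsp90 co-chaperone gene Cdc37 (0.79 ± 0.14) and Hsp90ab1 (0.60 ± 0.14) were highest, and the Hsp90 activator gene Ahsa1 (-1.56 ± 0.14), the prefoldin gene Vbp1 (-1.45 ± 0.14) and Ppwd1 (-1.39 ± 0.16) lowest. Hsp90aa1 went the other way from Hsp90ab1, at -0.94 ± 0.14. Of 9 mitochondrial partners, 2 were higher and 0 lower, at a median of -0.013. They were Clpb (2.37 ± 0.15), a disaggregase, and the protease gene Lonp1 (1.20 ± 0.14). Trap1, the mitochondrial Hsp90, followed at 0.39 ± 0.14, and Hscb (-0.57 ± 0.14), Clpx (-0.42 ± 0.14) and Grpel2 (-0.11 ± 0.14) were lowest. In the bone marrow comparison the counts were 14 higher and 1 lower of 21 ER partners, 1 higher and 10 lower of 30 cytosolic and nuclear partners and 2 higher and 3 lower of 9 mitochondrial partners, beside 22.6% higher and 30.7% lower of all genes.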

How the data were processed

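Sorted spleen B220+, spleen Venus+ CD138hi and bone marrow Venus+ CD138hi cells were measured on 1 Cy5-labelled 3D-Gene mouse array each. The authors deposited normalized intensity, the value used here. As the series' design text states, the mean of blank spots within a 95% interval was subtracted and the median of the detected signals of each array was set to 25. Checked against the scanner files, the table is linear, uncentred and rounded to 0.1, with each column's median at 25, and an undetected probe is empty. Recomputing it (mean of the middle 90% of 2736 blank spots, limit at 2 SD above) gave 0 differing detection calls. Signals of at least 10 differed by up to 0.935%, 4.05% and 2.87% in the order of the arrays above. Of 23473 probes, 16917, 17239 and 15857 were detected, with lowest detected signals of 1.3, 1.7 and 2.4. Precision is limited by having 1 array a population.

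Of the probes, 16631 had 1 gene symbol in the platform annotation, 0 had several and 6842 had none. For 8 members the current symbol (RefSeq table of GRCm38.p6, names only) is printed in place of the older one. The brightest probe stood for a gene with several (3 members). The spot error combines the SDs of the middle 90% of blank spots (0.670, 0.868 and 1.18 normalized units) with the relative SD of positive control spots (7.57%, 5.77% and 5.21%). Over all blank spots the SDs were 0.882, 1.10 and 1.52, so the errors given for dim genes are on the low side. A bound for a gene detected on 1 array is its signal over the lowest detected signal of the other, with no spot error taken into it. Calculations used Python 3.11.15 with pandas 2.3.3, and limma 3.58.1 for the normexp alternatives, and the calling step was checked on simulated signals. Compartments and partner lists rest on general knowledge. Alternatives in background, scaling, dim-probe filter, probe choice, fold and bounds were tried. The naming rule for members and the lists were chosen with earlier results of these data known. Genes described in full are every ER member detected on all arrays, the CCT and mitochondrial Hsp genes, the 6 highest and 6 lowest cytosolic, nuclear or mitochondrial members of each comparison and members seen in a single population of a comparison whose bound reaches 2-fold. Of each partner list the 3 highest and 3 lowest in the spleen are named, with Ero1b, Uggt2 and Hsp90aa1 added beside their relatives.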

Additional observations from a re-analysis of the deposited data

How the results depend on the processing

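Under 8 alternatives, 90 of 132 recomputed medians, median differences and counts stayed close to the values given. Close meant counts within 1.5 times and medians within the spot-error interval of a typical member. Some alternatives could change little, so this tally does not measure robustness. The scanner recomputation repeats the authors' recipe, and the mean of all probes can alter 3 members only. No paired analysis was possible because each population has 1 array. Values recomputed from the scanner files moved 1 call, that of Dnajc16, which lies on the 2-fold limit. The difference between the ER median and the cytosolic and nuclear median was positive in every comparison under every alternative (scaling cannot move it), though it shrank with a normexp background.

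With normexp on the local background, the medians in the spleen were 0.20 (ER) and -0.068 (cytosol and nucleus), 0.27 apart, with 4 members lower. In bone marrow against B220+ they were 0.51 and -0.12, 0.63 apart, with 5 lower, and in bone marrow against spleen Venus+ the cytosolic and nuclear median was -0.013, 0.076 below that of the ER, the mitochondrial median -0.34, and 2 members were higher. It turned the sign of Dnajb4 (0.042) and Hspd1 (2.05) in the spleen, of Dnajb3 (-0.0018), Dnajb4 (0.056), Cct4 (0.40), Ppig (0.24), Dnajc11 (0.032) and Hspd1 (1.69) in bone marrow against B220+, and of Dnajc5 (0.055) in bone marrow against spleen Venus+. The local background was 59.3%, 51.1% and 53.7% of the spot median for spots of 500 or more, so it carries signal.

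For that reason, and after seeing the data, normexp was repeated with the blank spots as background. It turned no call's sign. The ER median in the spleen was then 0.65, 0.86 from that of the cytosol and nucleus, with 7 members lower. In bone marrow against B220+ the cytosolic and nuclear median was -0.32, the mitochondrial 0.12, the ER 1.07 above the former, and 15 members were lower. In bone marrow against spleen Venus+ these medians were -0.11 and -0.17, with 0 higher and 0 lower.

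Scaled to probes detected on all 3 arrays, the ER, cytosolic and nuclear, and mitochondrial medians were 1.11, -0.59 and 0.093 in bone marrow against B220+ (19 lower) and 0.37, -0.10 and -0.26 in bone marrow against spleen Venus+ (3 higher, 0 lower). With signals of at least 10 only, the ER median in bone marrow against B220+ was 1.68, 2.75 above that of the cytosol and nucleus. The mean of all probes put the ER median in the spleen at 0.81, since Ppib moved it. A 3-fold limit left 12 higher and 3 lower in the spleen, 10 lower in bone marrow against B220+ and 0 higher and 0 lower between Venus+ populations. With genes detected on 1 array at their bound, the ER median in bone marrow against B220+ was 1.18 and 2 members were higher in bone marrow than in spleen Venus+ cells. Dim members are limited by signal over background.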

Other observations

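On this array, 15 further entries carry an older name in the probe table while their current symbol fits the families above, and were left out by the rule. Among them is a second entry of the member Dnajb8, detected on no array. Hspa13, an Hsp70-like protein of the ER (Stch in the table), had signals of 4.1, 21.4 and 36.1 in the order used above, log2 ratios of 2.38 and 3.14. Erp27, a redox-inactive ER protein that binds Pdia3, went the other way, at 123.5, 14.7 and 8.8 (-3.07 and -3.81). Txndc16 stood at 407.1, 170.4 and 58.0 (-1.26 and -2.81), and Txndc15 at 109.7, 137.7 and 153.3 (0.33 and 0.48). Of the 13 measured in both spleen populations, 2 were at least 2-fold higher (Dnajc28 and Hspa13) and 5 lower (Erp27, Pdilt, Dnajc21, Hspb11 and Txndc16). These genes were looked up after the members' values were seen.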
